A study of Mus musculus with 12 samples.

Results

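The 6 wound libraries from mice that received MCS-01, 3 labelled pre-MCS-01 and 3 labelled post-MCS-01, were set against the 6 libraries labelled blank or DSCG, out of 12 libraries in all. They were chosen by the treatment label alone, and the comparison asked which genes lay on the same side of the comparators under both MCS-01 labels. All 12 libraries came from back-skin wounds of C57BL/6 mice with diabetes induced by streptozotocin, a toxin of the insulin-producing beta cells, so the comparators were diabetic as well. Each library came from 1 mouse. MCS-01, a mast cell stabilizer, is known by its code name only. DSCG commonly stands for disodium cromoglycate, a drug of the same kind in long clinical use, and blank is read here as the untreated comparator. The labels do not say what pre and post refer to and give no dose, time after wounding, age or sex. With 1 mouse per library, the p-values measure the spread between these mice.

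Mast cells store histamine, proteases and proteoglycans in granules and release them on activation, and a stabilizer is a drug that holds this release back. In a skin wound, neutrophils and macrophages arrive early under the control of cytokines, and keratinocytes at the wound edge switch to an activated state with their own keratins, cornified envelope proteins and antimicrobial peptides. Cytokines of the interleukin 17 and interleukin 20 families act on keratinocytes and raise such defence genes. The dermis rests on a layer of fat cells, which store lipid in droplets and are part of the skin that a wound removes.

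Values are CPM, a gene's counts relative to the TMM-normalised library size, and differences are on the log2 scale. The 12 libraries held 3835042 to 50461867 gene counts. Blank replicate 3 was the shallow one, and the next lowest library had 37702643. A count of 0 in blank replicate 3 allows up to 0.782 CPM (3 counts), and in the other 11 libraries up to 0.0595 to 0.0796 CPM. These floors cover counting error only. Long transcripts were low in 3 libraries, replicate 2 of pre-MCS-01, replicate 2 of DSCG and replicate 3 of blank, with Spearman's rank correlation across genes between log exon length and the deviation from the mean library of -0.385, -0.33 and -0.32 (genes are not independent replicates). The other 9 libraries lay between -0.0559 and 0.337. DSCG replicate 1 was the comparator that most often lay closest to the MCS-01 libraries, as given below. The skin markers were present in every library, with Krt14 at 4571 to 15680 CPM and Krt5 at 4978 to 8526 CPM, both keratins of basal keratinocytes, and the type I collagen gene Col1a1 at 4529 to 30880 CPM.

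No gene passed the test in the pooled comparison of the 6 MCS-01 libraries with the 6 comparators. With edgeR's quasi-likelihood test and Benjamini-Hochberg adjustment over 16267 genes, 0 genes (0%) were higher and 0 (0%) lower at an adjusted p under 0.05, and the lowest adjusted p was 0.0608. At an unadjusted p under 0.05, 766 genes (4.71%) lay higher and 849 (5.22%) lower. Taken alone against the same comparators, pre-MCS-01 gave 0 genes in each direction (476, 2.93%, and 507, 3.12%, at an unadjusted p under 0.05), while post-MCS-01 gave 61 higher (0.375%) and 140 lower (0.861%). Since pre-MCS-01 passed for no gene, 0 genes changed the same way in both groups by that test. At an unadjusted p under 0.05 in each group, 229 genes (1.41%) lay higher in both, 92 (0.566%) lower in both, and 35 (0.215%) on opposite sides. Both groups were set against the same 6 libraries, which by itself pulls their differences the same way, so these counts are a description.

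The count of passing genes depended on the tool and on 1 comparator. DESeq2 called 172 genes higher (1.06%) and 266 lower (1.64%), of which 327 had the same sign in both MCS-01 groups, and limma-voom called 0 in each direction. With library quality weights limma-voom called 36 higher (0.221%) and 28 lower (0.172%). Leaving out DSCG replicate 1 gave 146 genes higher (0.883%) and 241 lower (1.46%) in edgeR, and 304 of these 387 had the same sign in both groups. With all 12 libraries in edgeR, 9360 of all 16267 genes had the same sign in both. The pooled comparison averages the 2 groups, so passing it already favours a shared sign. Leaving out post-MCS-01 replicate 3 gave 2 genes higher (0.0121%), Cldn17 and Il20. DSCG and blank did not differ from each other for any gene in edgeR (0 and 0 genes; at an unadjusted p under 0.05, 87 higher in DSCG, 0.535%, and 80 lower, 0.492%; lowest adjusted p 0.999).

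A comparison of each MCS-01 group with a different comparator shares no library. Pre-MCS-01 minus DSCG and post-MCS-01 minus blank had the same sign in 63% of the 16267 genes, with Pearson's r of 0.276 and a Spearman rank correlation of 0.357 across genes. Pre-MCS-01 minus blank and post-MCS-01 minus DSCG had the same sign in 44.5%, with r of -0.106 and a rank correlation of -0.112. These shares describe 2 ways of pairing the same 12 libraries, whose shared features include depth and the trend with transcript length, and they do not point the same way over all genes.

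What the MCS-01 libraries had in common is clearest where the 6 and 6 libraries did not overlap. In 90 genes (0.553%) every MCS-01 library lay above every comparator, and in 34 genes (0.209%) every MCS-01 library lay below, in log2 CPM with a prior count of 2. This separation is a description and not a test. The 90 higher genes had a median difference of 0.96 (0.14 to 4.86) and the 34 lower genes one of -1.13 (-2.30 to -0.30). The rule fixes the side of these differences, so the median over all genes tested, 2.41e-05, is no test of them. In both sets no gene differed between pre-MCS-01 and post-MCS-01 at an adjusted p under 0.05 (edgeR; 7 and 1 at an unadjusted p under 0.05). Over all genes these shares were 0.824% and 10.2%. The sets are small and the rule already places both groups on the same side, so these counts cannot show whether the groups agree. Of the 90 higher genes 70 lay further up in post-MCS-01 (77.8%, against 47.5% of all genes), and of the 34 lower genes 16 lay further down there. DSCG replicate 1 was the highest comparator in 43 of the 90 higher genes, with the other 5 comparators highest in 5 to 15 genes each. Post-MCS-01 replicate 3 was the lowest MCS-01 library in 29 of the 90 and pre-MCS-01 replicate 1 in 22. At the edge of the rule, Mvd was just separated by 0.000161 log2 CPM and Tmed2 just missed by -0.000926, and among lower genes Lctl was inside by 0.00522 and Proca1 outside by -0.00218.

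**Figure D1:**
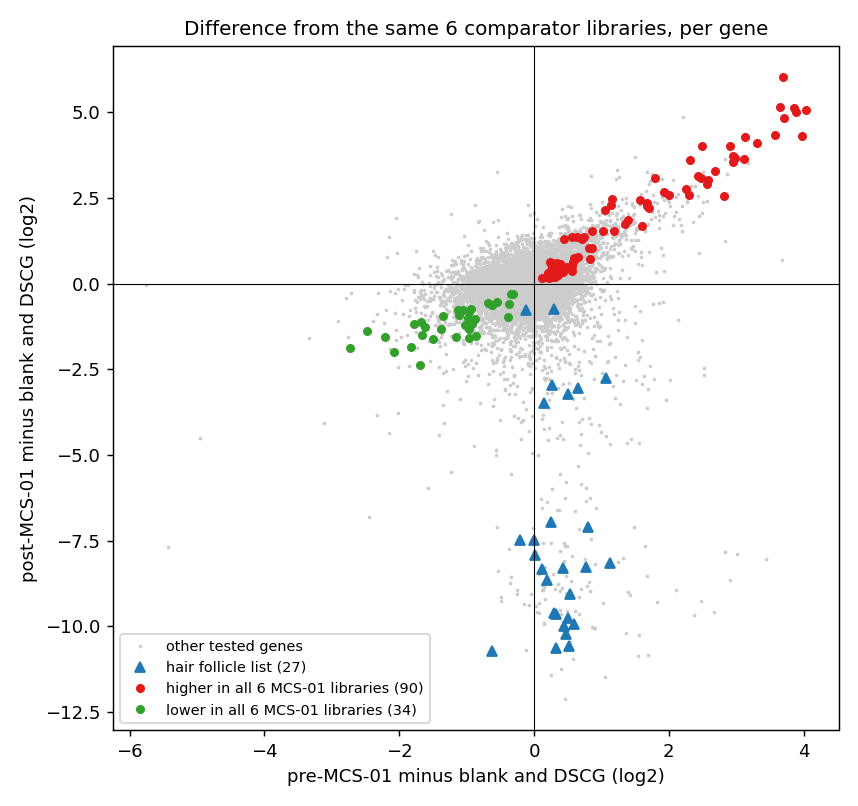
Each point is 1 of 16267 tested genes, with its log2 difference from blank and DSCG in pre-MCS-01 on the x axis and in post-MCS-01 on the y axis; both axes share the 6 comparator libraries. The 90 genes higher in all 6 MCS-01 libraries (red circles) lie in the upper right, the 34 lower ones (green circles) in the lower left, and most of the 27 hair follicle genes (blue triangles) lie far down in post-MCS-01 and near 0 in pre-MCS-01.

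Some secreted signals of the interleukin 20 and interleukin 17 families were among the genes furthest apart. These families, and the Sprr2 and Lce3 genes below, were grouped after their values were seen. Il20 (chromosome 1, 130906985 to 130911451, minus strand; all coordinates are GRCm38), a cytokine that acts on keratinocytes, stood at 0.845, 1.96 and 2.23 CPM in pre-MCS-01, 3.98, 7.05 and 1.06 in post-MCS-01, 0.0253, 0.176 and 0.106 in DSCG and 0.0588, 0.208 and 0 in blank. All 6 MCS-01 values lay above all 6 comparators, with post-MCS-01 replicates 1 and 2 highest. The difference was 4.49 ± 0.61 SE, with an adjusted p of 0.0608 (edgeR), and it was 3.85 in pre-MCS-01 and 5.12 in post-MCS-01. Blank replicate 3 had no count, and its floor of 0.782 CPM lies just under the lowest MCS-01 value. Il19 (chromosome 1, 130932656 to 130940115, minus strand), its neighbour on the chromosome and a ligand of the same receptor family, stood at 1.67, 9.01 and 10.4 CPM in pre-MCS-01, 13.6, 16.4 and 6.7 in post-MCS-01, 1.19, 1.6 and 0.0212 in DSCG and 0.49, 0.27 and 1.57 in blank. Its MCS-01 values also lay above every comparator, but pre-MCS-01 replicate 1 was barely above DSCG replicate 2. The difference was 3.71 ± 0.76 SE (adjusted p = 0.118, edgeR).

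Il22 (chromosome 10, 118204942 to 118210047, plus strand), a lymphocyte cytokine that drives epithelial defence genes, ranged over 0.323 to 1.92 CPM (median 0.871) in the MCS-01 libraries and 0 to 0.228 CPM (median 0.0098) in the comparators. Its groups did not overlap, at a difference of 4.14 ± 0.86 SE, but 3 MCS-01 values lie under the floor of blank replicate 3, which had no count. Il24, the remaining tested member of the interleukin 20 subfamily, overlapped between the groups and differed by 1.20 ± 0.69 SE (unadjusted p = 0.107). Il17c (chromosome 8, 122422020 to 122423639, plus strand), an interleukin 17 family cytokine made by epithelial cells, stood at 1.59, 2.87 and 7.11 CPM in pre-MCS-01, 8.29, 9.79 and 1.4 in post-MCS-01, 0.532, 0.0659 and 0.0847 in DSCG and 0.176, 0.811 and 0.262 in blank. Every MCS-01 value was above the highest comparator, blank replicate 2. Its difference was 3.95 ± 0.71 SE (adjusted p = 0.106, edgeR). Il17f (chromosome 1, 20777146 to 20790617, minus strand), made by T helper 17 cells, ranged over 2.64 to 9.93 CPM (median 4.77) in the MCS-01 libraries and 0 to 1.75 CPM (median 0.406) in the comparators. DSCG replicate 1 was its highest comparator, and the difference was 3.34 ± 0.83 SE. Of the 5 tested interleukin 17 genes 4 lay higher and 2 were separated, and the lowest difference among the 5 was -0.42. Without DSCG replicate 1, Il17f and Spdef were the 2 genes that passed in both MCS-01 groups in edgeR.

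Of the 26 genes on the list of cytokines and chemokines, 24 were tested, and all 24 lay higher in the pooled comparison. Their median difference was 2.02 (1.53 in pre-MCS-01 and 2.13 in post-MCS-01). Of the 24, 22 lay higher in both groups, against 5075 of all 16267 genes. None passed the adjusted test in edgeR, 16 lay higher at an unadjusted p under 0.05 (766 of all 16267 genes, 4.71%), and 4 were separated. The median was 1.17 without post-MCS-01 replicate 2. The summed level of the list overlapped, at 220.3 to 1970 CPM in the MCS-01 libraries and 33.14 to 327.2 CPM in the comparators. This list and the others were chosen with earlier results of these data known, so counts over a list are a description. Il1a, an alarm cytokine released by damaged keratinocytes, ranged over 8.35 to 37.2 CPM (median 14.3) in the MCS-01 libraries and 2.65 to 8.26 CPM (median 4.87) in the comparators and did not overlap (difference 1.62 ± 0.40 SE). Tnf, a cytokine of macrophages and mast cells, ranged over 4.54 to 20.7 CPM (median 10.5) in the MCS-01 libraries and 1.42 to 7.85 CPM (median 3.7) in the comparators, so its groups overlapped (difference 1.41 ± 0.44 SE, adjusted p = 0.262, edgeR). Il1b, the main interleukin 1 of myeloid cells, stood at 347, 36.8 and 105 CPM in pre-MCS-01, 40.7, 554 and 59.2 in post-MCS-01, 72.4, 12.4 and 1.52 in DSCG and 98.6, 4.55 and 8.65 in blank. Its highest values were in pre-MCS-01 replicate 1 and post-MCS-01 replicate 2, and blank replicate 1 was above 3 MCS-01 libraries. The neutrophil chemokine gene Cxcl1 differed by 2.19 ± 0.61 SE (adjusted p = 0.199, edgeR), and Cxcl2 by 2.88 ± 1.33 SE (adjusted p = 0.51, edgeR). The groups overlapped for both. Il6 ranged over 0.298 to 4.64 CPM (median 1.04) in the MCS-01 libraries and 0 to 2.5 CPM (median 0.22) in the comparators, at 0.97 ± 0.78 SE (0.04 in pre-MCS-01 and 1.89 in post-MCS-01).

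Neutrophil genes lay higher, and 2 of them were the calprotectin subunits. S100a8 (chromosome 3, 90668978 to 90670035, plus strand) and S100a9 (chromosome 3, 90692632 to 90695721, minus strand) encode the calcium-binding proteins that form calprotectin, abundant in neutrophils and also made by activated keratinocytes. S100a9 stood at 3892, 2810 and 2666 CPM in pre-MCS-01, 3642, 6746 and 2856 in post-MCS-01, 2352, 514 and 10.5 in DSCG and 508, 303 and 532 in blank. The MCS-01 values were all above the comparators, which spread from a very low value in DSCG replicate 3 to one close to the MCS-01 libraries in DSCG replicate 1. S100a8 followed with 1227 to 3009 CPM (median 1628) in the MCS-01 libraries and 8.74 to 1225 CPM (median 262) in the comparators, and DSCG replicate 1 lay just under the lowest MCS-01 library. The differences were 2.50 ± 0.80 SE for S100a9 (adjusted p = 0.267, edgeR) and 2.44 ± 0.76 SE for S100a8 (adjusted p = 0.257, edgeR). Lcn2 (chromosome 2, 32384633 to 32388252, minus strand), lipocalin 2, which binds bacterial siderophores, ranged over 121 to 501 CPM (median 205) in the MCS-01 libraries and 16 to 118 CPM (median 56.9) in the comparators (difference 1.81 ± 0.40 SE, adjusted p = 0.129, edgeR). Of 15 listed neutrophil genes 12 were tested, 11 lay higher and 1 lower, and their median was 1.35 (1.12 in pre-MCS-01, 1.68 in post-MCS-01). Their summed level was 4284 to 10800 CPM in the MCS-01 libraries and 61.87 to 3878 CPM in the comparators. S100a8 and S100a9 made up 90.32% to 95.05% of this sum in the MCS-01 libraries and 31.04% to 92.24% in the comparators. The other genes of the list summed to 227 to 1045 CPM and 42.7 to 301 CPM, with overlap. In bulk tissue, more cells of a type and more RNA per cell cannot be told apart.

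Skin defence genes and the Sprr2 and Lce3 cornification families lay higher as well, while the epidermal differentiation list was divided. Of the 17 tested genes of that list, 8 lay higher and 9 lower. Their median was -0.16 (0.12 in pre-MCS-01 and -0.34 in post-MCS-01). Defb3 (chromosome 8, 19293360 to 19295291, plus strand), the antimicrobial peptide beta-defensin 3, stood at 19.1, 41.4 and 19.1 CPM in pre-MCS-01, 43.7, 105 and 24 in post-MCS-01, 8.38, 5.47 and 0.106 in DSCG and 1.24, 0.707 and 0.262 in blank. All MCS-01 libraries were above DSCG replicates 1 and 2, which were in turn above the other comparators. The difference was 4.27 ± 0.76 SE (adjusted p = 0.106, edgeR). Slpi, an inhibitor of neutrophil elastase, ranged over 153 to 663 CPM (median 204) in the MCS-01 libraries and 15.3 to 96 CPM (median 68.9) in the comparators (2.0 ± 0.44 SE). Pglyrp1, a peptidoglycan recognition protein, ranged over 7.13 to 15.2 CPM (median 8.2) in the MCS-01 libraries and 1.61 to 5.24 CPM (median 4.23) in the comparators (1.28 ± 0.29 SE). All 9 tested Sprr2 genes, small proline-rich proteins of the cornified envelope, lay higher by 1.73 to 3.71, and 6 of them were separated. Sprr2f, 1 of these 6, ranged over 53.5 to 215 CPM (median 91.7) in the MCS-01 libraries and 0.275 to 23.9 CPM (median 8.83) in the comparators. All 6 tested Lce3 genes, late cornified envelope genes linked to barrier repair, lay higher by 1.19 to 2.81, with Lce3a and Lce3b separated. The Sprr2, Lce3, Serpinb3 and defensin genes have near-identical copies, reads that matched more than 1 place were not counted to a gene, and the split among copies is uncertain. All 13 genes of the wound keratinocyte list were higher in the pooled comparison with a median of 0.88, and 11 were higher in both groups. None was separated and none passed. The median was 0.60 without DSCG replicate 3 and 1.34 without the 3 libraries low in long transcripts. The 2 comparators were as far apart on this list, with a DSCG minus blank median of 0.84. Krt16, a keratin of activated keratinocytes, ranged over 4525 to 9190 CPM (median 5620) in the MCS-01 libraries and 319 to 7943 CPM (median 2978) in the comparators, and DSCG replicate 2 lay above 5 of the 6 MCS-01 libraries.

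**Figure D2:**
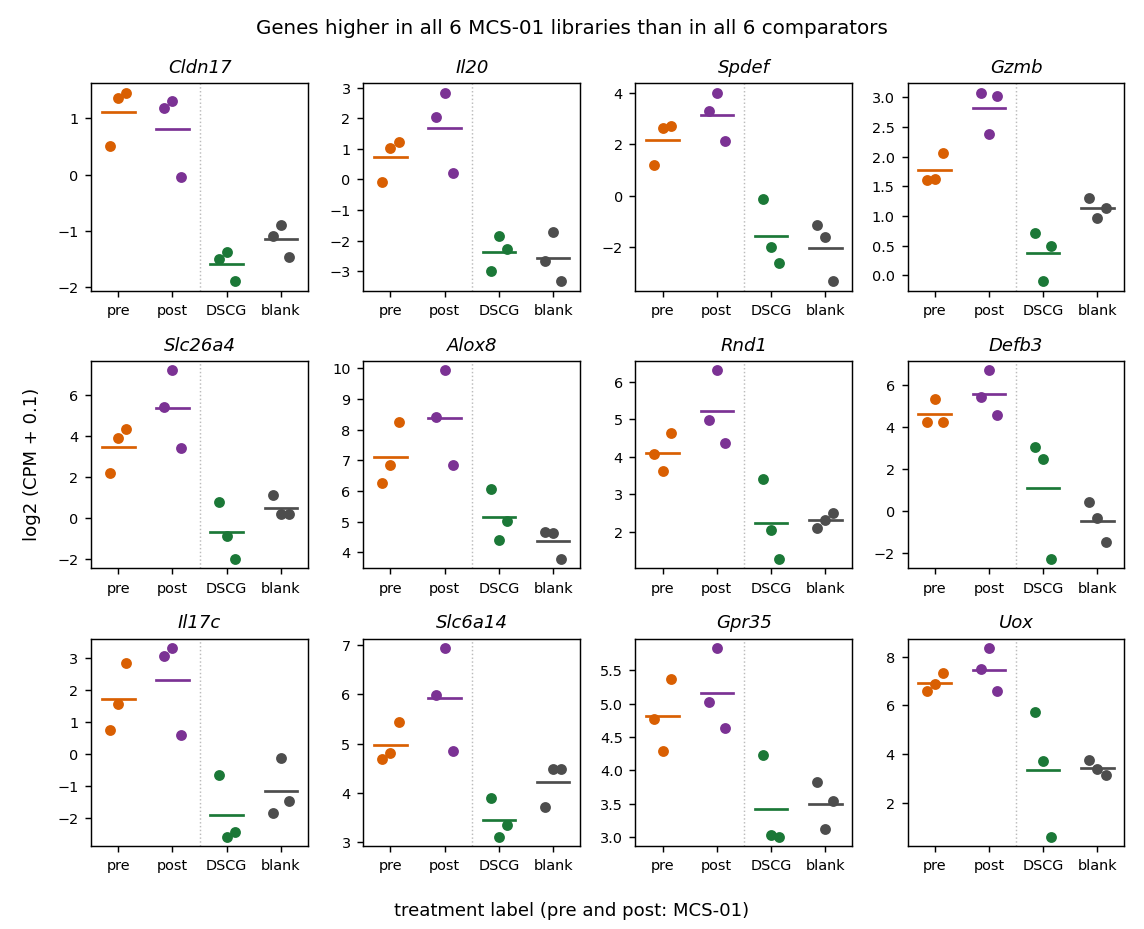
Log2 (CPM + 0.1) on the y axis in the 3 libraries (points) and the mean (line) of each label on the x axis, for the 12 higher genes with the smallest p among those without overlap. All points to the left of the dotted line lie above all points to its right in every panel, and DSCG replicate 1, the leftmost DSCG point, is the nearest comparator in several.

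The other genes with the smallest p on the higher side included transporters, enzymes, a junction protein, a transcription factor and a lymphocyte protease. Cldn17 (chromosome 16, 88505807 to 88506978, minus strand), a claudin of tight junctions, stood at 1.32, 2.47 and 2.65 CPM in pre-MCS-01, 2.17, 2.38 and 0.872 in post-MCS-01, 0.253, 0.286 and 0.169 in DSCG and 0.372, 0.437 and 0.262 in blank. The lowest MCS-01 library, post-MCS-01 replicate 3, was still above every comparator, and the difference was 2.69 ± 0.34 SE (adjusted p = 0.0608, edgeR) with 2.82 in pre-MCS-01 and 2.57 in post-MCS-01. In blank replicate 3 even a count of 0 allows 0.782 CPM, so separation of post-MCS-01 replicate 3 from that library is uncertain. Of 17 tested claudin genes 4 lay higher, with a median of -0.51, and Cldn17 was the 1 separated. Spdef (chromosome 17, 27714352 to 27728955, minus strand), an ETS transcription factor of secretory epithelium, stood at 2.19, 6.11 and 6.42 CPM in pre-MCS-01, 9.68, 16.1 and 4.32 in post-MCS-01, 0.811, 0.154 and 0.0635 in DSCG and 0.353, 0.229 and 0 in blank. Its highest comparator, DSCG replicate 1, was below the lowest MCS-01 library, pre-MCS-01 replicate 1, at 4.54 ± 0.63 SE (adjusted p = 0.0608, edgeR). Gzmb (chromosome 14, 56258838 to 56262260, minus strand), the granule protease granzyme B of cytotoxic T cells and NK cells, stood at 2.96, 2.98 and 4.07 CPM in pre-MCS-01, 8.34, 5.09 and 8.01 in post-MCS-01, 1.54, 0.835 and 1.31 in DSCG and 2.37, 1.85 and 2.1 in blank. Post-MCS-01 was highest and DSCG lowest, without overlap, at 1.60 ± 0.22 SE (adjusted p = 0.0608, edgeR). Of the 13 tested T and NK cell genes Gzmb was the 1 that was separated; 8 of the 13 lay higher and 5 lower, with a median of 0.11.

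Slc26a4 (chromosome 12, 31519827 to 31559969, minus strand), the anion exchanger pendrin, stood at 4.4, 15 and 20.5 CPM in pre-MCS-01, 42.2, 148 and 10.7 in post-MCS-01, 1.62, 0.44 and 0.148 in DSCG and 2.04, 1.04 and 1.05 in blank. Post-MCS-01 replicate 2 was far above the rest, and the difference was 4.86 ± 0.76 SE (adjusted p = 0.0999, edgeR). Slc6a14 on the X chromosome, an amino acid transporter, ranged over 25.6 to 122 CPM (median 36.1) in the MCS-01 libraries and 8.55 to 22.4 CPM (median 13.9) in the comparators (1.72 ± 0.33 SE). Alox8 (chromosome 11, 69183932 to 69197843, minus strand), a lipoxygenase of mouse epidermis, ranged over 77.1 to 978 CPM (median 209.5) in the MCS-01 libraries and 13.6 to 67 CPM (median 25) in the comparators (3.26 ± 0.55 SE). Uox (chromosome 3, 146570426 to 146632305, plus strand), urate oxidase, stood at 94.8, 116 and 160.4 CPM in pre-MCS-01, 178, 326 and 95.6 in post-MCS-01, 53, 13.1 and 1.42 in DSCG and 13.4, 10.4 and 8.65 in blank. DSCG replicate 1 was again the nearest comparator and DSCG replicate 3 the lowest, at 3.32 ± 0.66 SE. Gpr35 (chromosome 1, 92950865 to 92986391, plus strand), a receptor that cromoglycate is known to activate, ranged over 19.6 to 56.9 CPM (median 29.7) in the MCS-01 libraries and 7.92 to 18.6 CPM (median 10.1) in the comparators, and DSCG replicate 1 was its highest comparator. Its difference was 1.54 ± 0.30 SE, 1.36 in pre-MCS-01 and 1.73 in post-MCS-01. These 5 genes had adjusted p-values of 0.0999 (Slc26a4) and 0.106 (the other 4) in edgeR.

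Upstream sequences are shown for 5 separated genes, taken from RefSeq on GRCm38.p6. Each was read from 250 bases to 1 base before the first listed start. They are 4 higher genes and Rgl3, which had the smallest p on the lower side. All 5 windows hold a searched motif, so they do not stand for the separated genes as a whole. Those of Il20, Spdef, Cldn17 and Alox8, also higher genes with large differences, hold none. Capitals mark matches to the motif letters. The AP-1 motif was TGANTCA. The STAT motif searched was TTCNNNGAA. For C/EBP the letters were TTGCNNAA, and for the TATA box TATAAA. Both strands were searched and no shown matches overlap. Il19, minus strand, chr1:130940116-130940365, holds a STAT match; S100a9, minus strand, chr3:90695722-90695971, a C/EBP match; Gzmb, minus strand, chr14:56262335-56262584, an AP-1 match; Slc26a4, minus strand, chr12:31559985-31560234, a TATA match near the start; and Rgl3, the lower gene with the smallest p, minus strand, chr9:21989454-21989703, a STAT and a TATA match.
Il19: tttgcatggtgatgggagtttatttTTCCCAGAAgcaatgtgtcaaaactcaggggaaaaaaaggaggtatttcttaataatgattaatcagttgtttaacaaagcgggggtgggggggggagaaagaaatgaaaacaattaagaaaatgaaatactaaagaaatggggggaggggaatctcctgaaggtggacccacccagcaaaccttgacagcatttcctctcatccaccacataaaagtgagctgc
S100a9: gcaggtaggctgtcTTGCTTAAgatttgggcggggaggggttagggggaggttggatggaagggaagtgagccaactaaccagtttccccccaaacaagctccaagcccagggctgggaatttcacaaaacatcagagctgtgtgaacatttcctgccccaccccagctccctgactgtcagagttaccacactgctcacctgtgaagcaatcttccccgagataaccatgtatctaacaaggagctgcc
Gzmb: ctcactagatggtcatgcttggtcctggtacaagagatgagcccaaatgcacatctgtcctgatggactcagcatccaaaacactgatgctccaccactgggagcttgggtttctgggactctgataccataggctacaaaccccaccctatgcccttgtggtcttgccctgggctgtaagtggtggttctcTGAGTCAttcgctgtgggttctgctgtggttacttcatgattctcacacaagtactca
Slc26a4: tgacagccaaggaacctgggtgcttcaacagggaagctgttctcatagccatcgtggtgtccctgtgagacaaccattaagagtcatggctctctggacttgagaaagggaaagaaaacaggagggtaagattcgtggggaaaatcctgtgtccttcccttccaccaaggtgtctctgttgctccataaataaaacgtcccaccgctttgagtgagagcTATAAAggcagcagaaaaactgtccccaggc
Rgl3: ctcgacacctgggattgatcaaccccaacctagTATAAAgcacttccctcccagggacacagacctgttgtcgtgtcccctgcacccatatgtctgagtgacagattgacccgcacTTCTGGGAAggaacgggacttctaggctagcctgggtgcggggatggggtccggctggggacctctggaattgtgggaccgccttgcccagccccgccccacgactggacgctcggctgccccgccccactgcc

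A window was found for 69 of the 90 higher and 20 of the 34 lower genes, and for 12062 of the genes tested. Among the 69, AP-1 was present in 9 (13.0%), against 6.87% of all 27025 promoters and 5.17% of the genes tested, and C/EBP in 9 (13.0%), against 9.55% and 7.99%. TATA was present in 14 (20.3%), against 13.0% and 8.13%, and STAT in 2 (2.9%), against 7.18% and 6.12%. Each copy of a gene family was counted by itself. Sprr2e, Sprr2f, Sprr2i and Sprr2k all hold both AP-1 and TATA, and Serpinb3b and Serpinb3c both hold TATA. These counts are therefore not of independent genes. Of the 20 windows of lower genes, 4 held AP-1, 2 STAT, 2 C/EBP and 3 TATA. A match is a description of these letters and not a binding site, and these shares were not tested.

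The hypoxia and glycolysis list, Myc and the cell cycle list lay higher in the pooled comparison by smaller amounts. All 15 genes of the hypoxia and glycolysis list lay higher in the pooled comparison. Their median was 0.63 (0.49 in pre-MCS-01 and 0.72 in post-MCS-01). Of the 15, 13 lay higher in both groups, and 10 lay higher at an unadjusted p under 0.05 (4.71% of all genes). The median was 0.41 without post-MCS-01 replicate 2. Pgk1 (chromosome X, 106187100 to 106203699, plus strand), a glycolytic kinase, stood at 472, 488 and 478 CPM in pre-MCS-01, 481, 635 and 422 in post-MCS-01, 380.0, 330.1 and 258 in DSCG and 281, 290.5 and 350.1 in blank. Each MCS-01 library lay above each comparator, with post-MCS-01 replicate 2 highest, at a difference of 0.65 ± 0.15 SE (adjusted p = 0.129, edgeR). Ldha, lactate dehydrogenase A, was separated by a small margin, with 935 to 1280 CPM (median 1025) in the MCS-01 libraries and 546 to 898 CPM (median 702) in the comparators (0.60 ± 0.18 SE). The summed level of the 15 genes was 4413 to 6595 CPM against 2759 to 4367 CPM, without overlap. Myc (chromosome 15, 61985391 to 61990374, plus strand), a transcription factor of growth and proliferation, ranged over 71.5 to 87.6 CPM (median 80.1) in the MCS-01 libraries and 48 to 62.9 CPM (median 53.6) in the comparators, and its difference of 0.54 ± 0.11 SE was close to equal in both groups (0.56 in pre-MCS-01 and 0.52 in post-MCS-01). All 17 cell cycle genes lay higher in the pooled comparison at a median of 0.31, which was 0.55 in pre-MCS-01 and 0.10 in post-MCS-01. Of the 17, 11 lay higher in both groups, and 1 gene, Cdc20, was at an unadjusted p under 0.05. The DSCG minus blank median of this list was 0.38, larger than the MCS-01 difference, and for Cdc20 both differences were 0.55. The list's median was 0.17 without the 3 libraries low in long transcripts.

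Fat cell genes were the clearest group on the lower side. Of 16 adipocyte genes 15 lay lower, with a median of -0.86 (-0.95 in pre-MCS-01 and -0.87 in post-MCS-01), 10 lay lower at an unadjusted p under 0.05 (849 of all 16267 genes, 5.22%), and none passed the adjusted test in edgeR. The median stayed between -1.07 and -0.67 over the alternatives, with 15 or 16 of the genes lower. The DSCG minus blank median of this list was -0.46, and Cidec gave -0.75, so blank was the higher of the 2 comparators. Their summed level was 1559 to 2338 CPM in the MCS-01 libraries and 2436 to 3453 CPM in the comparators, without overlap. Cidec (chromosome 6, 113424634 to 113435760, minus strand), a lipid droplet protein, stood at 33.2, 31.9 and 8.15 CPM in pre-MCS-01, 39.1, 11.5 and 31.5 in post-MCS-01, 57.3, 57.3 and 63.8 in DSCG and 75.4, 103 and 122 in blank. All MCS-01 values lay under all comparators, with pre-MCS-01 replicate 3 and post-MCS-01 replicate 2 lowest. The difference was -1.58 ± 0.36 SE (adjusted p = 0.129, edgeR), with -1.66 in pre-MCS-01 and -1.49 in post-MCS-01. Lpl, lipoprotein lipase, which frees fatty acids from circulating fat, ranged over 49.5 to 176 CPM (median 105) in the MCS-01 libraries and 173 to 361 CPM (median 235) in the comparators, and post-MCS-01 replicate 1 lay just above DSCG replicate 1 (-1.19 ± 0.30 SE, adjusted p = 0.153, edgeR). Adiponectin (Adipoq) and leptin (Lep), hormones of fat cells, differed by -1.23 ± 0.40 SE and -1.74 ± 0.45 SE, and the groups overlapped for both.

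Several further lower genes are known from fat cells, a grouping made after their values were seen. Adrb3 (chromosome 8, 27225776 to 27250616, minus strand), the beta-3 adrenergic receptor that starts lipolysis, stood at 3.18, 3.35 and 1.86 CPM in pre-MCS-01, 2.39, 2.02 and 1.97 in post-MCS-01, 4.46, 5.19 and 4.76 in DSCG and 3.96, 8.59 and 12.3 in blank. The 6 MCS-01 values lay between 1.86 and 3.35 CPM, under every comparator, at -1.35 ± 0.27 SE (adjusted p = 0.109, edgeR). Thrsp (chromosome 7, 97412938 to 97417730, minus strand), a lipogenic protein induced by thyroid hormone, stood at 5.17, 7.27 and 2.39 CPM in pre-MCS-01, 8.67, 2.09 and 3.86 in post-MCS-01, 12.6, 15.6 and 10.5 in DSCG and 16.6, 28.4 and 26.2 in blank. Its groups did not overlap and blank replicates 2 and 3 were highest, at -1.83 ± 0.36 SE (adjusted p = 0.106, edgeR). Hcar1, the lactate receptor of fat cells, ranged over 0.506 to 1.54 CPM (median 0.955) in the MCS-01 libraries and 1.6 to 4.91 CPM (median 2.35) in the comparators (-1.40 ± 0.31 SE). Aqp7, a glycerol channel, ranged over 0.506 to 1.56 CPM (median 1.08) in the MCS-01 libraries and 1.62 to 3.96 CPM (median 2.68) in the comparators (-1.44 ± 0.35 SE). DSCG minus blank was -0.75 for Adrb3, -0.94 for Hcar1 and -0.07 for Aqp7. Ebf2, a transcription factor of fat precursor cells, ranged over 1.04 to 2.07 CPM (median 1.69) in the MCS-01 libraries and 2.11 to 6 CPM (median 2.84) in the comparators (-1.16 ± 0.32 SE). Tshr, the thyrotropin receptor, ranged over 0.096 to 0.983 CPM (median 0.63) in the MCS-01 libraries and 1.19 to 2.41 CPM (median 1.57) in the comparators (-1.56 ± 0.48 SE).

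The lower genes outside fat included signalling and matrix genes. Rgl3 (chromosome 9, 21968711 to 21989446, minus strand), an exchange factor for Ral GTPases whose upstream sequence is shown above, stood at 1.86, 1.68 and 1.59 CPM in pre-MCS-01, 1.76, 1.1 and 1.42 in post-MCS-01, 3.14, 3.78 and 4.59 in DSCG and 2.94, 2.79 and 2.36 in blank. All MCS-01 values lay under all comparators, with post-MCS-01 replicate 2 lowest, at -1.05 ± 0.19 SE (adjusted p = 0.106, edgeR). Prdm8 (chromosome 5, 98167198 to 98188991, plus strand), a transcriptional regulator of the PR domain family, ranged over 2.16 to 3.75 CPM (median 2.9) in the MCS-01 libraries and 4.53 to 8.08 CPM (median 6.72) in the comparators (-1.12 ± 0.22 SE, adjusted p = 0.106, edgeR). Comp, a matrix protein of tendon and cartilage, ranged over 0.568 to 2.94 CPM (median 1.91) in the MCS-01 libraries and 3.34 to 7.09 CPM (median 4.99) in the comparators (-1.48 ± 0.33 SE), and Mturn, a small protein of neural differentiation, over 7.1 to 14.2 CPM (median 11.6) in the MCS-01 libraries and 14.8 to 21.7 CPM (median 16.8) in the comparators (-0.68 ± 0.15 SE). Adhfe1, an alcohol dehydrogenase family enzyme, ranged over 1.4 to 2.98 CPM (median 2.02) in the MCS-01 libraries and 3.18 to 5.84 CPM (median 3.65) in the comparators (-0.95 ± 0.22 SE). Ypel4 and Slc12a8 completed the 12, at -1.01 ± 0.24 SE and -1.14 ± 0.27 SE. Adrb3, Prdm8, Mturn and Adhfe1 each overlap a gene on the opposite strand, and no strand setting of the counting was given, so reads of the partners cannot be told apart.

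**Figure D3:**
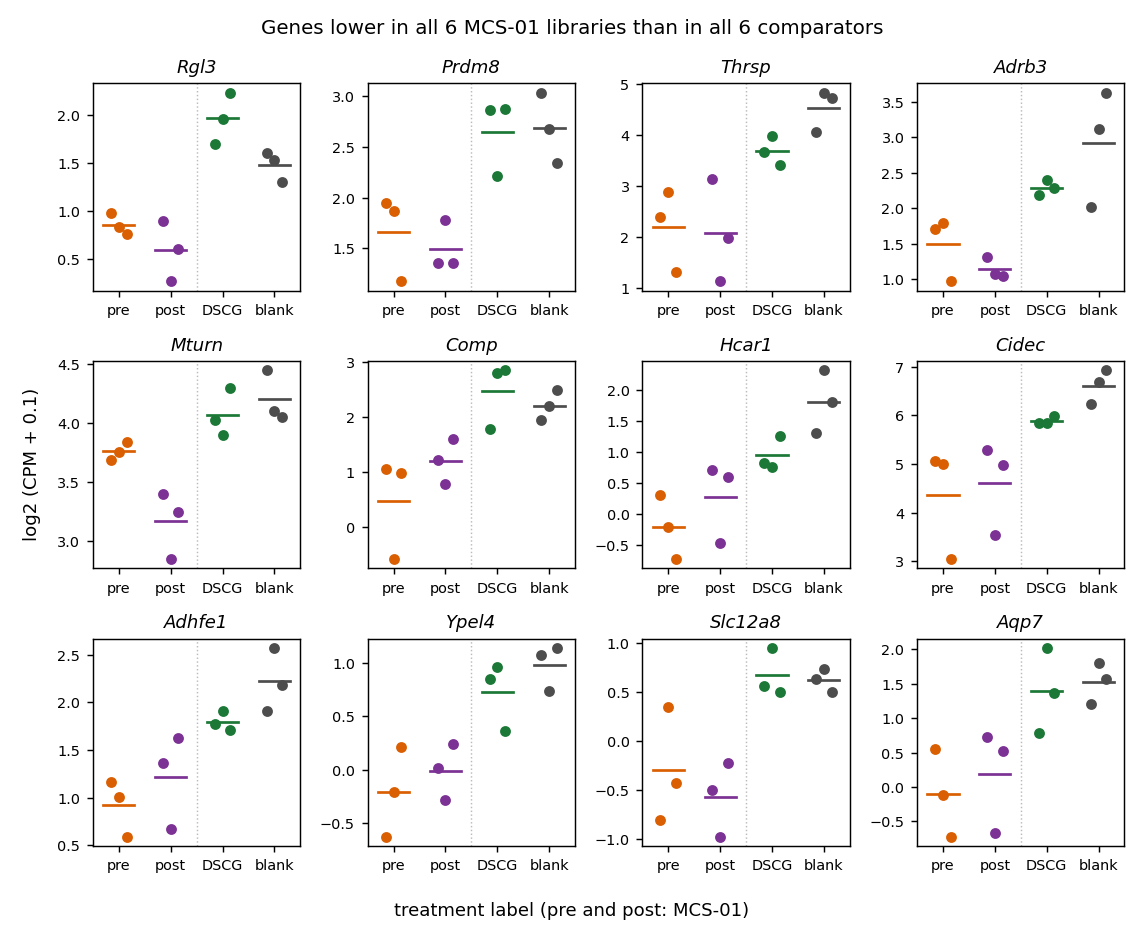
Log2 (CPM + 0.1) on the y axis in the 3 libraries (points) and the mean (line) of each label on the x axis, for the 12 lower genes with the smallest p among those without overlap. All points to the left of the dotted line lie below all points to its right, for Cidec at no more than 39.1 CPM in MCS-01 and at least 57.3 CPM in the comparators.

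Lists of other skin tissues lay mostly on the lower side. Sebaceous gland genes lay lower in 11 of 12 cases (median -0.51), and this median was -0.11 without DSCG replicate 3. Endothelial genes lay lower in 12 of 13 cases with a median of -0.32, which was -0.58 in pre-MCS-01 and -0.05 in post-MCS-01, and -0.12 without pre-MCS-01 replicate 2. Myofibroblast and smooth muscle genes lay lower in all 11 cases (median -0.29) and collagen and matrix genes in 15 of 20 (median -0.20), with 0 passing in edgeR in any list. These medians rested on single libraries: leaving out post-MCS-01 replicate 2 gave -0.09 for the myofibroblast list, while the collagen median was 0.03, with 13 of 20 genes higher, without blank replicate 1 and -0.76 without pre-MCS-01 replicate 3. DSCG minus blank gave medians of -0.88 for the sebaceous list and -0.43 for the collagen list, both larger in size than the MCS-01 differences. These counts are of the pooled comparison. In both MCS-01 groups, 10 of the 12 sebaceous, 10 of the 13 endothelial, 5 of the 11 myofibroblast and 14 of the 20 collagen genes lay lower. For reference, 8133 of all 16267 genes lay lower in the pooled comparison and 4285 lay lower in both groups. The fat, sebaceous and vascular lists mark parts of the tissue piece that was cut out, and the part that the piece itself plays in these values was not tested.

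Of the macrophage lists, the M1 median lay higher in both groups, while the M2 medians lay on opposite sides. The M1 list, genes of classically activated macrophages, lay higher for all 16 genes in the pooled comparison. Its median was 1.17 (0.78 in pre-MCS-01, 1.64 in post-MCS-01), but the list shares Tnf, Il1b and Il6 with the cytokine list. Of the 16 genes 14 lay higher in both groups, none was separated and none passed the pooled test in edgeR. Their summed level overlapped, at 199.8 to 1106 CPM in the MCS-01 libraries and 88.06 to 326.6 CPM in the comparators. Nos2, inducible nitric oxide synthase, stood at 4.72, 2.47 and 55.8 CPM in pre-MCS-01, 2.37, 76.3 and 2.13 in post-MCS-01, 2.31, 1.01 and 1.02 in DSCG and 7.8, 2.04 and 0.262 in blank. Its high values were those of pre-MCS-01 replicate 3 and post-MCS-01 replicate 2, and the other 4 MCS-01 libraries overlapped the comparators (3.35 ± 1.09 SE, adjusted p = 0.281, edgeR). The M2 list, genes of alternatively activated macrophages, had a median of -0.01 made of -0.76 in pre-MCS-01 and 0.70 in post-MCS-01. Mrc1, the mannose receptor, gave -0.76 in pre-MCS-01 and 0.74 in post-MCS-01 (unadjusted p of the difference between the groups 0.00141, adjusted 0.105, edgeR). Arg1, arginase 1, lay higher in both groups, unlike the list's median, and stood at 267, 215 and 307 CPM in pre-MCS-01, 227, 452 and 132 in post-MCS-01, 181, 65.9 and 49.8 in DSCG and 92, 77 and 79.4 in blank. Its difference of 1.56 ± 0.35 SE was about equal in both groups (1.54 in pre-MCS-01 and 1.58 in post-MCS-01), and post-MCS-01 replicate 3 lay below DSCG replicate 1. Chil3, a chitinase-like protein of the same list, differed by 2.27 ± 0.40 SE (1.22 in pre-MCS-01 and 3.31 in post-MCS-01), with an adjusted p of 0.106 (edgeR) and an overlap of 1 value. General macrophage and MHC class II genes had medians of -0.01 and 0.03, made of -0.30 and -0.35 in pre-MCS-01 and 0.35 and 0.36 in post-MCS-01.

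**Figure D4:**
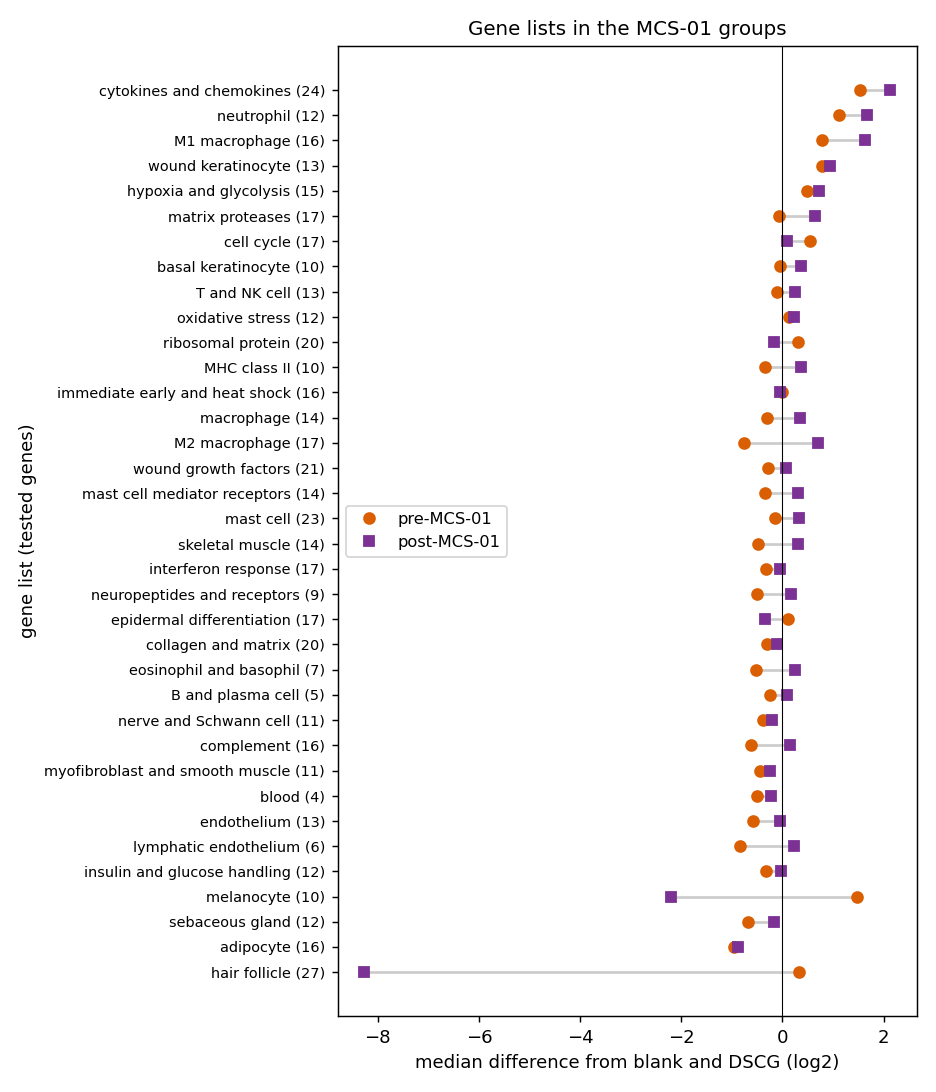
Median log2 difference from blank and DSCG over the tested genes of each list (number in brackets) in pre-MCS-01 (circles) and post-MCS-01 (squares), which share the 6 comparators; no error is drawn. Cytokine, neutrophil and M1 medians lie right of 0 and the adipocyte median left of 0 in both groups, while hair follicle, melanocyte and M2 medians lie on opposite sides.

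Genes of mast cells, the cells that a stabilizer acts on, lay on no common side. Of 24 listed genes 23 were tested, 11 lay higher and 12 lower, with a median of -0.06 that was -0.15 in pre-MCS-01 and 0.33 in post-MCS-01 and ran from -0.13 to 0.17 over the alternatives. Cpa3 (chromosome 3, 20215620 to 20242181, minus strand), the granule enzyme carboxypeptidase A3, stood at 13.2, 14.1 and 20.4 CPM in pre-MCS-01, 23.9, 11.2 and 26.3 in post-MCS-01, 22.6, 17.4 and 15.7 in DSCG and 23.8, 22 and 17.3 in blank. The groups overlapped throughout, at -0.14 ± 0.22 SE (unadjusted p = 0.549). The connective tissue mast cell proteases gave -0.15 ± 0.25 SE for Cma1, -0.15 ± 0.28 SE for Mcpt4 and -0.34 ± 0.24 SE for Tpsb2, each with overlap. Kit, the stem cell factor receptor of mast cells and melanocytes, gave 0.32 in pre-MCS-01 and -0.94 in post-MCS-01 (unadjusted p of the difference between the groups 0.00991, adjusted 0.292, edgeR). The summed level of the list was 261.3 to 744 CPM in the MCS-01 libraries and 204.7 to 417.4 CPM in the comparators.

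Of the mast cell list 3 of 23 genes lay higher at an unadjusted p under 0.05, against 4.71% of all genes. Hdc (chromosome 2, 126593667 to 126619299, minus strand), the enzyme that makes histamine, also present in neutrophils, stood at 166, 17 and 52.7 CPM in pre-MCS-01, 23.5, 243 and 41.7 in post-MCS-01, 45.9, 10.7 and 3.68 in DSCG and 40.2, 8.48 and 7.6 in blank. Pre-MCS-01 replicate 1 and post-MCS-01 replicate 2 were far above the others, the same 2 libraries that were highest for Il1b, and the groups overlapped (2.19 ± 0.82 SE, adjusted p = 0.373, edgeR). Srgn, the proteoglycan serglycin of mast cell and other leukocyte granules, ranged over 39.6 to 319 CPM (median 88.5) in the MCS-01 libraries and 18 to 71.1 CPM (median 26.7) in the comparators (1.71 ± 0.55 SE). Cma2, a chymase, was at 3.86 CPM in pre-MCS-01 replicate 2 and at 0.796 CPM or less elsewhere (2.18 ± 0.74 SE). The part of the neutrophil genes' higher level in the Hdc and Srgn values was not tested.

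**Figure D5:**
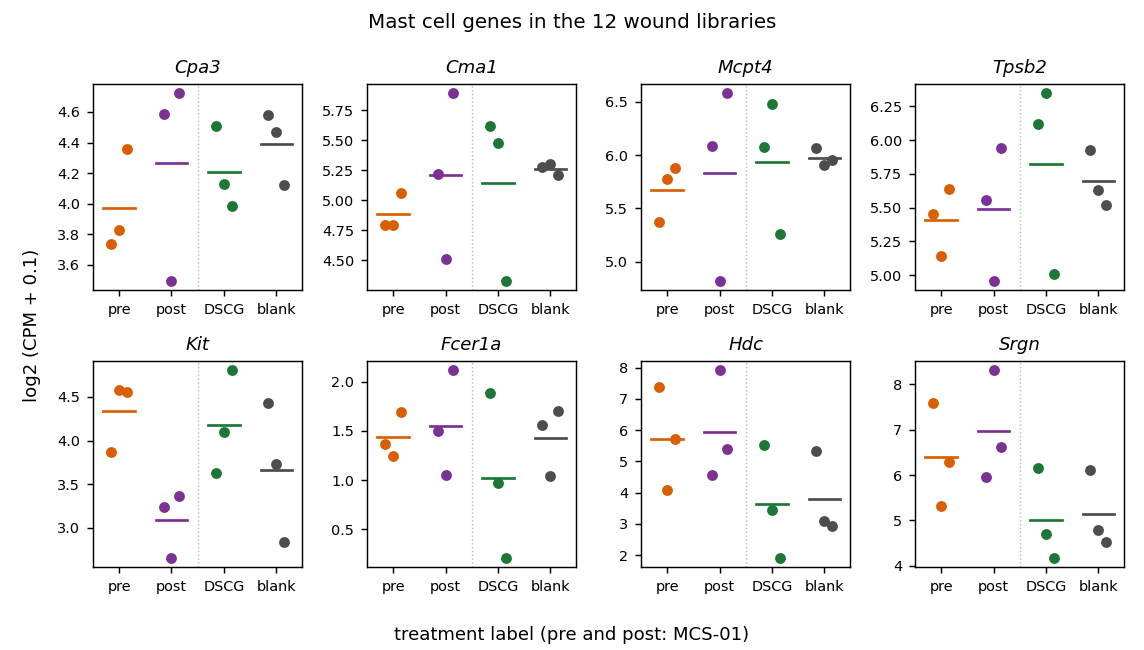
Log2 (CPM + 0.1) on the y axis of 8 mast cell genes in the 3 libraries (points) and the mean (line) of each label on the x axis. Cpa3, Cma1, Mcpt4, Tpsb2, Kit and Fcer1a overlap across the dotted line, and so do Hdc and Srgn, whose highest points are pre-MCS-01 replicate 1 and post-MCS-01 replicate 2.

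Hair follicle genes lay lower in the pooled comparison but not in both MCS-01 groups. All 27 listed genes lay lower in the pooled comparison (median -3.92), 24 of them at an unadjusted p under 0.05 (5.22% of all genes), but the median was 0.33 in pre-MCS-01 and -8.27 in post-MCS-01. The summed level was 15180 to 41000 CPM in pre-MCS-01, 229.4 to 293.1 CPM in post-MCS-01, 2486 to 47180 CPM in DSCG and 8133 to 23950 CPM in blank. The 2 MCS-01 groups differed in 20 of the 27 genes, and over all genes in 131 higher in pre-MCS-01 (0.805%) and 3 lower (0.0184%), in edgeR at an adjusted p under 0.05. Without the 3 libraries low in long transcripts these counts were 0 and 0. That setting also leaves fewer libraries in pre-MCS-01, DSCG and blank, and the 2 effects on the counts cannot be told apart. In the pre-MCS-01 libraries that were kept, the summed level was 15360 and 15180 CPM, above every post-MCS-01 library. The 124 separated genes include no gene of the hair follicle list.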

How the data were processed

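The authors deposited unnormalised counts of reads for 24062 gene symbols and 5 summary lines per library. The tools named in the submitters' processing notes are FastQC, TopHat2, Bowtie2, HTSeq and limma, with build mm10; versions, settings, strand and annotation are not given in the sources used here. Reads outside a gene or with more than 1 match were 22.9% to 29.3% of all, and left out of the library sizes. Groups follow the treatment label, 3 libraries each; mice were numbered 1 to 3 in record order.

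Counts were analysed in R 4.3.3. The edgeR 4.0.16 filter for low counts left 16267 genes, TMM factors were 0.905 to 1.07, and a quasi-likelihood model with a mean per group in all 12 libraries gave two-sided p-values, adjusted by Benjamini-Hochberg (threshold 0.05). The biological coefficient of variation was 0.347. The steps of the pooled comparison were run on simulated counts. These had the same effect in both MCS-01 groups and no trend with transcript length, so that run does not cover such features. A value with an error is a log2 difference with its standard error. That error is the size of the difference divided by the square root of the quasi-likelihood F statistic, so it was not estimated apart from the test. Genes were named per direction as the 12 with the smallest p among non-overlapping genes that averaged 1 CPM or more and had no predicted symbol, since none passed; up to 2 members of each of 36 lists and a fixed set followed, and other named genes were chosen after their values were seen. Not every gene that this rule picks is described. The members and lists were chosen with earlier results of these data known. Coordinates are from GENCODE M21 and matched by symbol. Alternatives were other scalings, no filter, DESeq2 1.42.0, limma-voom (limma 3.58.1) with and without library weights, 2 levels, a length covariate, and leaving out libraries.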

Additional observations from a re-analysis of the deposited data

Results flagged for a closer look

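The 2 MCS-01 effects, taken against the same comparators, differed by the edgeR test of pre-MCS-01 against post-MCS-01 in 131 genes that were higher in pre-MCS-01 and 3 that were lower. Among the genes named from the lists, Krt72, a keratin of the inner root sheath, was the higher in pre-MCS-01 by 10.1 on the log2 scale, and Krtap11-1, a keratin-associated protein of the hair shaft, by 10.9 (adjusted p = 0.0313 for each, edgeR). Krt72 stood at 203, 609 and 185 CPM in pre-MCS-01, 0.731, 0 and 0.184 in post-MCS-01, 40.4, 1246 and 939.8 in DSCG and 572, 195 and 288 in blank. Post-MCS-01 lay under every other library, and DSCG replicate 1 was the lowest of the rest. Krtap11-1 ranged over 0.072 to 562 CPM (median 65.9) in the MCS-01 libraries and 13.5 to 736 CPM (median 162) in the comparators, with all post-MCS-01 values at 0.176 CPM or less.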

How the results depend on the processing

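Alternatives for the pooled count, the count shared by both groups and the separation (except those without a filter or without 3 libraries) were planned; those for the single groups, the difference between them and the paired directions were chosen after seeing the data. No paired analysis was possible because all mouse numbers in the labels differ. In pooled MCS-01 against comparators (edgeR 0 higher, 0 lower), DESeq2 gave 172 and 266, weighted limma-voom 36 and 28, no filter 3 and 0, 2 levels 4 and 0, and leaving out 1 library 0 to 146 higher and 0 to 241 lower. Shared by both groups (0 and 0) were 14 and 6 in DESeq2, 47 and 13 in weighted limma-voom, and 0 to 2 and 0 to 0 without 1 library. For pre-MCS-01 (0 and 0), DESeq2 gave 19 and 55, weighted limma-voom 118 and 224, and leaving out 1 library 0 to 2 and 0 to 0. For post-MCS-01 (61 and 140), DESeq2 gave 295 and 496, limma-voom 2 and 2, weighted 332 and 455, the length covariate 47 and 61, leaving out the 3 libraries low in long transcripts 0 and 0, and leaving out 1 library 0 to 289 and 0 to 424. For pre-MCS-01 against post-MCS-01 (131 and 3), these were 331 and 97, 1 and 0, 1816 and 2002, 1 and 0, 0 and 0, and 0 to 249 and 0 to 5. Separated genes (90 and 34) were 321 and 260 without the 3 libraries, as fewer libraries need to be apart, and 85 to 212 and 43 to 102 without 1. Shares of same-sign genes (63% and 44.5%) were 56.2 to 67.4% and 39.4 to 56.7% without 1 library. RLE and total-count scaling kept every count within 1.5 times, and no alternative moved the median of all genes by more than 0.0331. Of 113 single genes under the alternatives, 2243 of 2373 values kept their sign and did not pass, 106 kept it and passed (48 genes in DESeq2, 33 without DSCG replicate 1), 21 changed sign where the reported value was under its standard error, and 3 reversed otherwise: Ccr3 to 0.00274 with weights and 0.0255 without the 3 libraries, and Oca2 to 0.339 with 2 levels; the causes were not tested. Blank replicate 3 limits low genes.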

Other observations

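Genes of sterol synthesis and mitochondrial energy supply were among the 90 separated higher genes and stood on no list; they were chosen after their values were seen. Hmgcs1, which makes the precursor of mevalonate, ranged over 248 to 313 CPM (median 274) in the MCS-01 libraries and 166 to 230.4 CPM (median 207) in the comparators (0.45 ± 0.13 SE, adjusted p = 0.23, edgeR), and Mvd, a later enzyme of the same pathway, over 90.5 to 128 CPM (median 103) in the MCS-01 libraries and 62.6 to 90.5 CPM (median 78.6) in the comparators (0.46 ± 0.13 SE). The ATP synthase subunit genes Atp5a1 and Atp5b differed by 0.22 ± 0.12 SE and 0.24 ± 0.13 SE, and Cyc1, cytochrome c1, by 0.30 ± 0.11 SE. None passed the adjusted test in edgeR.

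Hand1, a transcription factor known from heart development, ranged over 0.713 to 6.38 CPM (median 1.22) in the MCS-01 libraries and 0 to 0.304 CPM (median 0.0104) in the comparators. Its MCS-01 values lie partly under the floor of blank replicate 3, which had no count, so separation from that library rests on depth. Tiparp, an ADP-ribosyltransferase induced by the aryl hydrocarbon receptor, ranged over 19.8 to 66.6 CPM (median 29.4) in the MCS-01 libraries and 9.36 to 18.1 CPM (median 14.7) in the comparators (1.20 ± 0.25 SE). Gch1, the first enzyme of tetrahydrobiopterin synthesis, ranged over 33.6 to 59 CPM (median 45.6) in the MCS-01 libraries and 23.1 to 31.7 CPM (median 28.3) in the comparators (0.71 ± 0.15 SE).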
